A study of Mus musculus with 3 samples.

Results

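The transcripts described here are 6 noncoding RNAs measured in CD8+ T cells: the small Cajal body RNAs Scarna2, Scarna6 and Scarna17, the telomerase RNA Terc, the Y RNA Rny3 and the small nucleolar RNA host transcript Zfas1. They were chosen by gene symbol for low values on the array of CXCR3- innate cells, and all 6 had a value among the 10191 genes measured. That array therefore chose the members. Every comparison that includes it below is a description and supports nothing by itself.

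The study profiled CD8+ T cells of 3 populations, naive, CXCR3+ innate and CXCR3- innate, with 1 Affymetrix array each. The cells came from spleen and lymph nodes of C57BL/6 mice in which green fluorescent protein reports the chemokine receptor CXCR3. The mice were naive and kept pathogen-free, and every population was stained for CD44, CD62L and CD8 before sorting. RNA of about 3 to 5 mice went into the preparations, per the labels, and the term innate is that of the labels. The labels used here give neither the age of the mice nor the gates of the sort.

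Small Cajal body RNAs guide the chemical modification of the spliceosomal RNAs inside Cajal bodies, which are nuclear compartments rich in RNA-protein particles. Terc is the template RNA of telomerase and shares with many guide RNAs an H/ACA domain, which the proteins dyskerin, NOP10, NHP2 and GAR1 bind. Y RNAs are short RNA polymerase III transcripts that bind the Ro60 and La proteins and are known for roles in RNA quality control and DNA replication. Zfas1 is a spliced noncoding transcript whose introns hold small nucleolar RNAs. In lymphocytes, ribosome, spliceosome and telomerase production is known to vary with activation and division.

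RefSeq (GRCm38.p6) classed Scarna2, Scarna6 and Scarna17 as guide RNAs, Terc as telomerase RNA, Rny3 as Y RNA and Zfas1 as a long noncoding RNA. Its gene lengths were 61 bases for Scarna2, 62 for Scarna17, 101 for Rny3, 248 for Scarna6, 397 for Terc and 2929 for Zfas1. The Scarna2 and Scarna17 entries are short, and the transcripts that their probe sets cover may be longer, which the files used here do not settle. Scarna6 lay inside the autophagy gene Atg16l1, and Zfas1 contained 3 small nucleolar RNA genes, Snord12 among them. The reference tables held promoter sequence for 1 of the 6 genes, Zfas1. Its window is shown as the region around the start of this host transcript, and whether other genes share it was not examined. It lies at chr2:167062684-167062983 (GRCm38.p6, plus strand) and covers 250 bases before and 50 after the start. Capitals mark GGGCGG or its reverse complement CCGCCC, the letters of a GC box.
Zfas1 promoter: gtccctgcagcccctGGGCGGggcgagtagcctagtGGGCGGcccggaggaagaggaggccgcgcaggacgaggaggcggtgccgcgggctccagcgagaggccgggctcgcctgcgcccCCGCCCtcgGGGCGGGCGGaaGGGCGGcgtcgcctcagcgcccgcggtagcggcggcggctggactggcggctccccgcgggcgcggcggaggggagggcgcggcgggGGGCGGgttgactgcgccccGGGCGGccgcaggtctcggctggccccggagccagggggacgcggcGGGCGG
The window held 9 matches to GGGCGG, 8 on the plus and 1 on the minus strand, some of which overlap each other. That motif occurred on either strand in 35.7% of the 32851 promoters of the table. The searched letters TATAAA, present in 13.6% of all promoters, and CCAAT, present in 37.4%, were not in this window on either strand. The G and C content was 83.0%, against a median of 52.7% over all promoters. A match is a description of letters and not a binding site.

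Values are on the log2 scale of RMA, a method that subtracts background, brings the arrays to equal distributions and combines each probe set's probes into 1 value. The array medians over genes were 7.63 on both innate arrays and 7.65 on the naive array, and for 34.2% of probe sets the 3 arrays gave equal values. Where a gene below is said to have equal values, that does not show that its transcript was unchanged. A gene counted as lower or higher between 2 arrays at a difference of 1 log2 unit (2-fold) or more, provided that its higher value reached the median of that array. A gene below both medians could thus not be called, whatever its difference. With 1 array per population there was no test, no error and no replicate check, and the number of arrays limits the precision. Of 7 CD8+ T cell genes listed, 5 had values, and on the CXCR3- innate array all 5 were below naive, with a median difference of -0.52, or -0.41 after quantile normalization. On the CXCR3+ innate, CXCR3- innate and naive arrays in turn, Cd3g read 10.72, 10.17 and 11.10 and Cd8a 10.14, 9.77 and 10.43. Cd3d read 8.83, 8.31 and 8.83, Cd3e 11.45, 11.51 and 11.81 and Cd8b1 11.31, 11.29 and 11.54. None of these marker genes passed 2-fold. On the CXCR3- innate array, all 5 differences from naive had the sign of those of the 6 RNAs. On the CXCR3+ innate array 4 did and 1, that of Cd3d, did not. The part of these genes in the result was not tested. No B cell or erythroid marker listed had a value in the table, and 3 of 7 myeloid, 1 of 3 CD4 T cell and 1 of 3 natural killer cell markers did. Their CXCR3- innate minus naive differences were 0.24 for Ncr1, 0.22 for S100a9, 0.099 for Adgre1, 0.057 for Foxp3 and 0.00 for Itgam. The part of other cells in the values below was not tested.

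Every one of the 6 RNAs had its lowest value on the CXCR3- innate array, its middle value on the CXCR3+ innate array and its highest value on the naive array. That order held for 12.5% of all genes. For Scarna2 the CXCR3+ innate and naive values were nearly equal, and their order turned after median centring, cyclic loess or quantile normalization. In these bulk samples, fewer cells that make an RNA and less RNA per cell cannot be told apart.

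**Figure D1:**
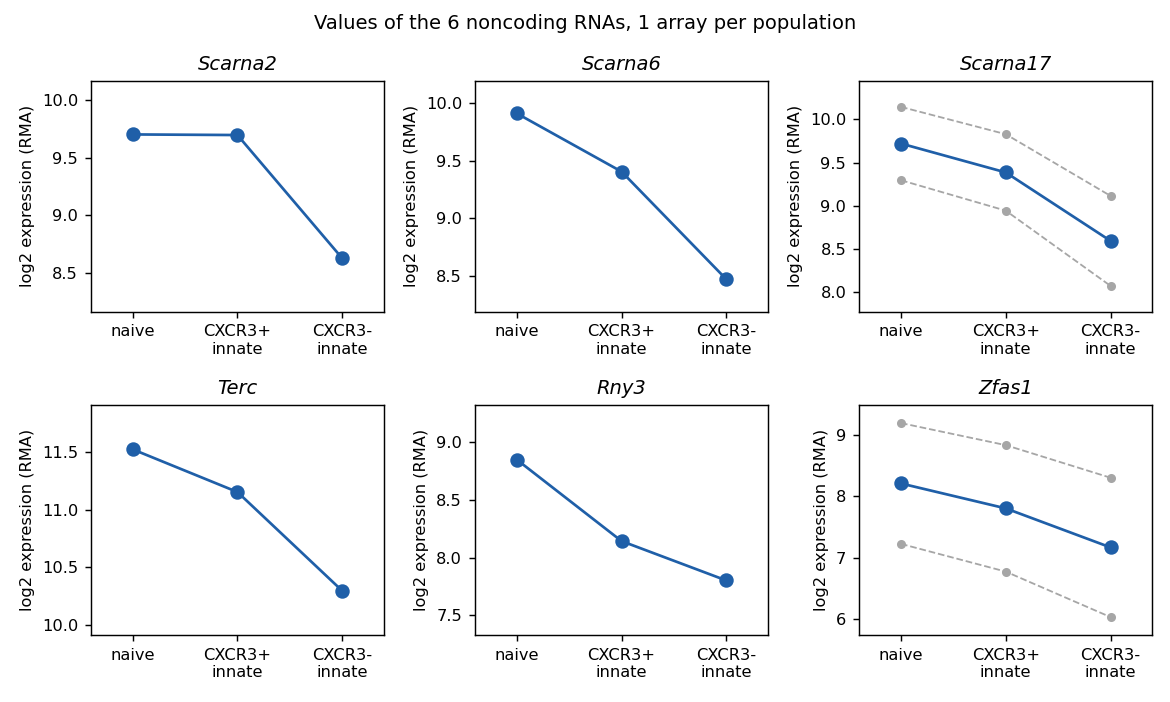
Log2 expression (RMA) of each of the 6 RNAs on the naive, CXCR3+ innate and CXCR3- innate arrays, with 1 array per population. Blue points are gene values, grey dashed lines are the separate probe sets of Scarna17 and Zfas1, and each panel has its own vertical axis. All 6 lines end lowest at CXCR3- innate; Scarna2 is nearly level between naive and CXCR3+ innate cells, and Rny3 has its larger step there.

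Among the Cajal body RNAs, Scarna2, which guides methylation of a spliceosomal RNA, read 9.69 on the CXCR3+ innate, 8.63 on the CXCR3- innate and 9.70 on the naive array. Only the CXCR3- innate array was low for it. Its value there was 2.11-fold below naive and, by a difference of -1.07 on the log2 scale, as far below CXCR3+ innate cells. Scarna6, the guide RNA within Atg16l1, read 9.41, 8.47 and 9.91 in the same order. It had the largest difference of the 6 RNAs from naive cells, 2.71-fold, and its CXCR3+ innate value lay between the others. Atg16l1 itself read 7.56 on all 3 arrays, below the median of each.

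Scarna17 was measured by a pair of probe sets, whose mean read 9.39 on the CXCR3+ innate, 8.59 on the CXCR3- innate and 9.72 on the naive array, 2.19-fold lower in CXCR3- innate than in naive cells. The probe sets differed from naive by -1.23 and -1.03 on the log2 scale, so both put the CXCR3- innate value below. Scarna8 was the only other Cajal body RNA with a probe set of its own, out of 24 symbols listed. It read 8.11 on every array, so its values did not show the pattern. Equal values on all arrays were given by 34.2% of probe sets and do not show that an RNA was unchanged. A further 3 probe sets carry a Scarna symbol beside that of another gene and are not named here. Their CXCR3- innate minus naive differences ran from -0.97 to -0.043, whereas their CXCR3+ innate minus naive differences ran from 0.12 to 0.19.

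Terc, the RNA template of telomerase, read 11.15 on the CXCR3+ innate, 10.30 on the CXCR3- innate and 11.52 on the naive array. The CXCR3- innate value was the low one, 2.34-fold below naive and 1.81-fold below CXCR3+ innate cells. Rny3 read 8.14, 7.80 and 8.85 in the same order, and both innate arrays were low for it. It was 2.07-fold lower in CXCR3- innate and 1.63-fold lower in CXCR3+ innate than in naive cells.

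Zfas1 read 7.80 on the CXCR3+ innate, 7.17 on the CXCR3- innate and 8.21 on the naive array as the mean of a pair of probe sets, 2.07-fold lower in CXCR3- innate than in naive cells. The brighter probe set read 8.84, 8.31 and 9.20 and differed by -0.89 from naive, short of 2-fold. The dimmer read 6.77, 6.02 and 7.22 and differed by -1.20. Only its naive value was above 7, the lower limit of the table on a probe set's highest value, so its presence in the table rests on the array where it was high.

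Set against naive cells, 6 of the 6 RNAs were at least 2-fold lower in CXCR3- innate cells, where 0.226% of all genes were, and none was higher, where 0.0196% were. Since this contrast chose the members, nothing is read from that share. Their median difference was -1.10, with a range of -1.44 to -1.05, against a median of 0.00 over all genes. Over all genes 23 were lower and 2 higher, or 9 lower and 2 higher after quantile normalization. That step was applied on top of RMA, to only the probe sets with a value of at least 7 on some array. After that normalization Scarna6 and Terc passed 2-fold, while Scarna17 differed by -0.99, Rny3 by -0.96, Scarna2 by -0.91 and Zfas1 by -0.90. Around the threshold, Rny3 and Zfas1 both lay at -1.05. Among noncoding genes that are not members, Snord35a stood just inside at -1.01. Snora15, which read 10.61 on the naive array, stood just outside at -0.97. Snord110 differed by -0.99 but read 7.29 on the naive array, below its median, so the rule could not call it.

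Set against CXCR3+ innate cells, the CXCR3- innate values had a median difference of -0.83, or 1.77-fold, against 0.00 over all genes. Scarna2 alone passed the size rule, so 1 of 6 members was lower, where 0.147% of all genes were, and none was higher, where 0.00981% were. Scarna2 was also the 1 member at least 2-fold lower on the CXCR3- innate array than on both other arrays, which 0.0589% of genes were. The other differences were -0.93 for Scarna6, -0.86 for Terc, -0.79 for Scarna17, -0.64 for Zfas1 and -0.34 for Rny3.

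The comparison of CXCR3+ innate with naive cells leaves out the CXCR3- innate array but shares the naive array with the contrast that chose the members. It is therefore not free of that choice and is given as a description too. None of the 6 RNAs passed the size rule, where 0.0981% of all genes were lower and 0.137% higher. The differences were -0.71 for Rny3, -0.50 for Scarna6, -0.41 for Zfas1, -0.37 for Terc, -0.34 for Scarna17 and -0.0052 for Scarna2. Under the scalings that turned its order, the Scarna2 difference was 0.11 after quantile normalization, 0.038 after cyclic loess and 0.012 after centring. The median over the 6 was -0.39, against 0.00 over all genes, and 2.95% of genes lay below that median. For Rny3, 0.461% of all genes had a difference as low or lower, and for Scarna2 33.7% did. On the path from CXCR3- innate to naive values, the CXCR3+ innate value stood at a median of 67.4%, from 32.6% for Rny3 to 99.5% for Scarna2.

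**Figure D2:**
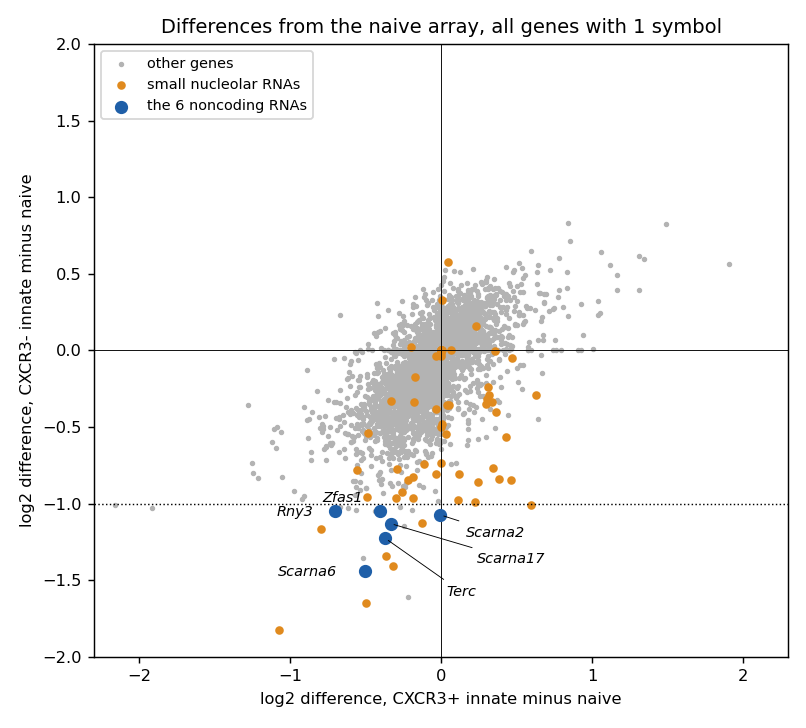
Log2 differences from the naive array for all genes with 1 symbol: CXCR3+ innate minus naive on the horizontal axis and CXCR3- innate minus naive on the vertical axis, which share the naive array. Blue points are the 6 RNAs, orange points 58 small nucleolar RNAs and grey points other genes; the dotted line marks a 2-fold lower value, and 2 genes lie outside the plotted range. The 6 RNAs lie below the dotted line, between -0.71 and -0.0052 on the horizontal axis.

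Other noncoding RNA classes were set beside the 6 RNAs. The 58 small nucleolar RNAs, which guide modification of ribosomal RNA or take part in its cleavage, had a median of -0.49 for CXCR3- innate minus naive, with 48 below 0 and 7 at least 2-fold lower. Over all genes, 36.3% were below 0 and 42.1% equal in that comparison, against which this and the later counts below 0 are to be read. Their median was -0.56 for CXCR3- minus CXCR3+ innate and 0.00 for CXCR3+ innate minus naive, where that of the 6 RNAs was -0.39. The 514 long noncoding RNAs other than Zfas1 had medians of 0.00 in all 3 comparisons, and 1 of them was lower in CXCR3- innate than in naive cells. That was Epb41l4aos, also a small nucleolar RNA host, which read 7.74 on the CXCR3+ innate, 7.39 on the CXCR3- innate and 8.41 on the naive array. The 139 microRNA genes had a median of 0.064 for CXCR3- innate minus naive.

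**Figure D3:**
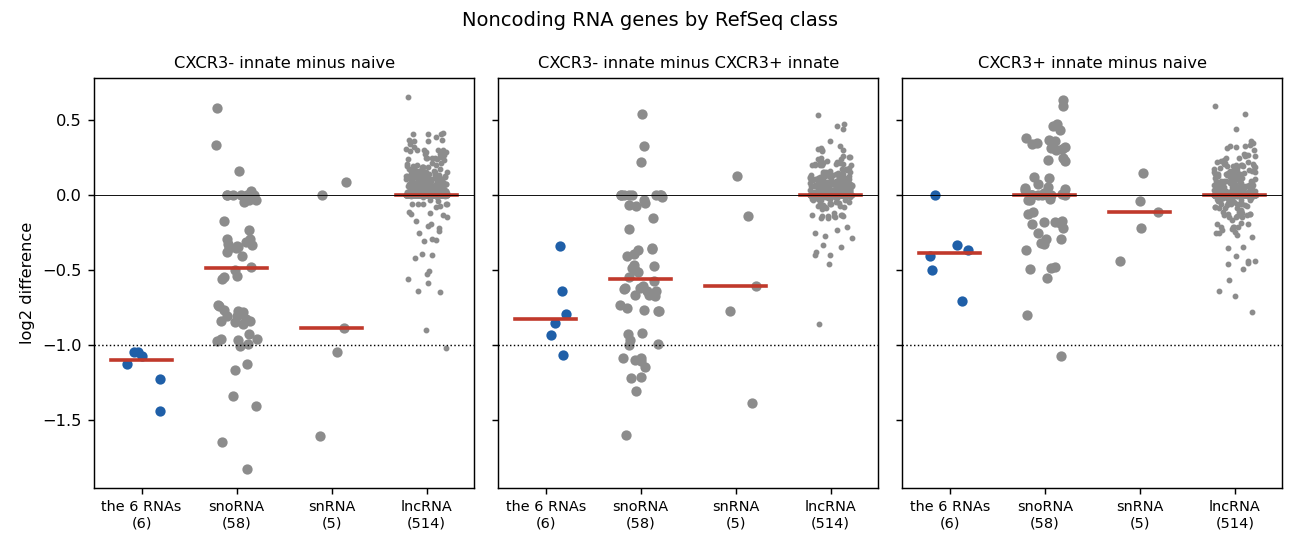
Log2 differences of single genes in each of the 3 comparisons, for the 6 RNAs (blue) and for other genes of the RefSeq classes snoRNA (small nucleolar), snRNA (small nuclear) and lncRNA (long noncoding), with the number of genes under each name. The small nuclear class of RefSeq includes Rnu3a and also Snord73b, whose symbol is that of a small nucleolar RNA. Red bars are medians, the solid line is 0 and the dotted line marks 2-fold lower. The 6 RNAs lie at -1.44 to -1.05 in the left panel, where long noncoding RNAs have a median of 0.00.

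Structured RNAs outside the RefSeq classes named above differed among themselves. Rnu12, an RNA of the minor spliceosome, read 10.59, 9.20 and 10.81 in CXCR3+ innate, CXCR3- innate and naive cells, a CXCR3- innate minus naive difference of -1.61. For Rnu3a, needed for processing of the ribosomal RNA precursor but classed by RefSeq as small nuclear, it was -1.05. Rnu11, also of the minor spliceosome, read 11.53, 11.38 and 11.38, with equal values in CXCR3- innate and naive cells. Rn7sk, which restrains transcription elongation, read 13.50, 13.63 and 13.54, and Rpph1, the RNA of ribonuclease P, 10.81, 10.74 and 11.44. Rprl2, of the same class, read 9.58, 9.42 and 9.53. Of the 7 measured genes of this list, 2 were lower in CXCR3- innate than in naive cells and none was higher. The list median was -0.11, and 0.016 after quantile normalization.

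The difference was also set against RNA length. The CXCR3- innate minus naive median was -0.41 over 35 other structured RNAs of up to 100 bases, -0.44 over 24 of more than 100 and up to 200 bases and -0.72 over 8 that were longer. Of these, 4, 4 and 1 were at least 2-fold lower. Recovery of short RNAs by the RNA kit was not tested.

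**Figure D4:**
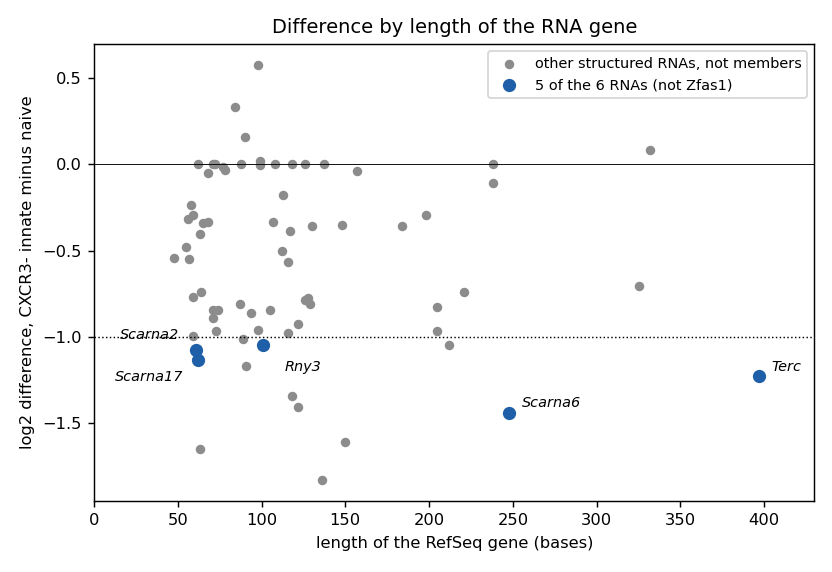
CXCR3- innate minus naive log2 difference against the length of the RefSeq gene in bases, for 5 of the 6 RNAs (blue) and 67 other guide, small nucleolar, small nuclear and ribonuclease P RNAs (grey). The dotted line marks 2-fold lower. The 5 blue points lie below that line and run from Scarna2 at 61 bases to Terc at 397; the transcripts measured for Scarna2 and Scarna17 may be longer than plotted.

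The genes of the proteins that bind, make or trim such RNAs, and of some related proteins, were examined next, from lists chosen by function. Of the H/ACA core proteins, which bind Terc and the H/ACA guide RNAs, 4 of 6 had values. None passed the size rule in any comparison. Dkc1, Nhp2 and Gar1 read below the median of every array, so of the 4 only Nop10 could have passed. Many genes of the lists below were as dim, which limits what their counts show. Nop10 read 8.92 on the CXCR3+ innate, 8.32 on the CXCR3- innate and 8.69 on the naive array, and Nhp2 read 7.33, 6.77 and 7.12. For both, the CXCR3+ innate array was the high one, unlike for Terc. Dkc1, the pseudouridine synthase of the complex, differed by -0.085 between CXCR3- innate and naive cells, and Gar1 read 7.16 on all 3 arrays. The list median was -0.22 for CXCR3- innate minus naive, whereas CXCR3+ innate minus naive gave 0.13.

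The proteins of box C/D particles, which methylate RNA, had a median of -0.26 for CXCR3- innate minus naive over 4 measured genes, with none past the size rule. Their differences were -0.62 for Nop58, -0.26 for Snu13 and Rrp9 and -0.23 for Nop56. Of 21 Cajal body and SMN complex genes, 9 had values, 5 were below 0, 4 were equal and none passed. Coil and Smn1 were not among these 9. Strap differed by -0.45, Nolc1 by -0.23, Taf9 by -0.085 and Uspl1 by -0.058. That median was -0.019, and 0.011 after centring on the median.

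Of 21 telomerase and telomere genes listed, 15 had values, and Tert, the gene of the telomerase protein, was not among these 15. None of the 15 passed the size rule, and their median was -0.083 for CXCR3- innate minus naive. The lowest difference there was -0.34, short of 2-fold. Many of these genes, among them Ruvbl1, Terf2ip and Rtel1, read below the median of every array, where the rule calls no gene. For such dim genes a small difference does not show that the transcript was unchanged. Tent4b, a polymerase that adds tails to Terc, differed by -0.34, and Parn, the nuclease that removes them, by -0.23. Among shelterin genes, which cap telomeres, Tinf2 differed by -0.29, Terf2ip by -0.14, Terf2 by -0.13, Pot1b by -0.083, Acd by -0.034 and Pot1a by -0.032. The assembly factor Ruvbl1 differed by -0.095 and the helicase gene Rtel1 by -0.053. Ruvbl2, Ctc1, Stn1 and Ten1 had equal values on all 3 arrays.

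In the list of Ro, La, La-related and other RNA-binding proteins, 11 of 13 genes had values. Of these, 10 were below 0 for CXCR3- innate minus naive and none passed. Ro60, the Y RNA-binding protein gene, read 7.50 on the CXCR3+ innate, 7.52 on the CXCR3- innate and 7.50 on the naive array. Its values hardly differed where those of Rny3 did, but they lay below the array medians. Whether low signal hid a difference was not tested. Ssb, which encodes La, read 8.09, 7.92 and 8.46, an order like that of Rny3. The others differed by -0.52 for Ncl, -0.42 for Larp7 and Pnpt1, -0.39 for Ybx1, -0.31 for Larp4b, -0.27 for Hnrnpk, -0.22 for Larp4, -0.13 for Ptbp1 and -0.088 for Larp1. The list median was -0.31.

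None of 12 measured genes of RNA polymerase III and its factors passed, with differences from -0.20 to 0.00 and a median of -0.095 for CXCR3- innate minus naive. The 4 lowest were Polr3b at -0.20, Maf1 at -0.18, Brf1 at -0.15 and Polr3c at -0.13. None of 15 genes of the exosome and related nucleases passed either. Their median was -0.083, and the lowest were Rbm7 at -0.45, Exosc10 at -0.26, Xrn2 at -0.25 and Parn, given above.

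**Figure D5:**
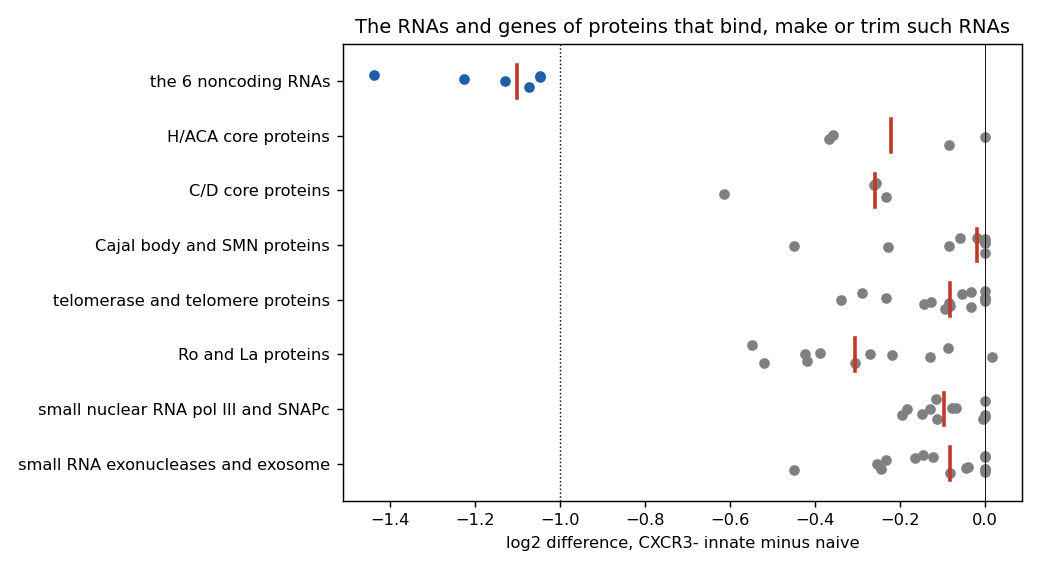
CXCR3- innate minus naive log2 differences of the 6 RNAs (blue) and of genes for proteins that bind, make or trim such RNAs or are related to such proteins (grey), by list. Each point is 1 gene, red bars are medians and the dotted line marks 2-fold lower. No protein gene reaches that line; the list medians lie between -0.31 and -0.019, and that of the 6 RNAs at -1.10.

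Host genes differed among themselves. Of 16 measured hosts of small nucleolar RNAs, not counting Zfas1, 10 were below 0 for CXCR3- innate minus naive, 5 were equal and 1, Snhg4, was above 0, at 0.024. Of the 10 below 0, Epb41l4aos passed the size rule. Snhg1 read 8.91 on the CXCR3+ innate, 8.50 on the CXCR3- innate and 9.40 on the naive array, the same order as Zfas1. Eif4a2 differed by -0.75 and Snhg5 by -0.42, whereas Snhg7, Snhg15 and Snhg20 had equal values on every array. The list median was -0.23. In the list of small Cajal body RNA hosts, Ppp2r5a differed by -0.49 and Atg16l1 and Snhg20 by 0.00. Of these hosts, only Atg16l1 contained one of the RNAs described here, Scarna6. Scarna17 lay inside the long noncoding RNA gene Gm41774, which had no value, and no gene was found to contain Scarna2. Near Zfas1, Znfx1 and Ddx27 read 7.32 and 7.04, below the array medians, each with equal values on all 3 arrays. The small nucleolar RNAs inside Zfas1 were not analysed here. A further list held 6 measured long noncoding RNAs, Epb41l4aos again among them. In it Malat1, a nuclear speckle RNA, differed by -0.65 between CXCR3- innate and naive cells and by -0.64 between CXCR3+ innate and naive cells. Neat1, the scaffold of paraspeckles, differed by -0.24 and -0.22, and Norad by 0.00 and -0.082.

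The genes whose pattern over the 3 arrays was most like the median pattern of the 6 RNAs were found by distance over the 3 log2 differences. The nearest 10 were Rps19 of the small ribosomal subunit, at a distance of 0.16, Cox7b of cytochrome c oxidase at 0.16, Atp5md of ATP synthase at 0.21, Snora73b at 0.23, Rnu3a at 0.23, Snord104 at 0.25, Snora28 at 0.27, Snora34 at 0.28 and the pseudogenes Gm5215 and Gm5614 at 0.29 and 0.31. The 6 RNAs themselves lay at 0.068 for Scarna17, 0.13 for Terc, 0.20 for Zfas1, 0.37 for Scarna6, 0.46 for Scarna2 and 0.58 for Rny3. Genes outside the group were thus nearer to its median pattern than Scarna6, Scarna2 and Rny3. Rps19 read 10.24, 9.48 and 10.51 in CXCR3+ innate, CXCR3- innate and naive cells.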

How the data were processed

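The authors deposited log2 expression values; RMA and Affymetrix Expression Console are named in the submitters' processing notes. Versions and the genome build are not given in the sources used here. RNA was extracted with a column kit, per the labels' protocols. The table held 12417 probe sets, each with a value of at least 7 on some array. Of these, 10576 had 1 gene symbol, 1108 several and 733 none; only the first kind named genes, and several probe sets of a gene were averaged, giving 10191 genes. RefSeq classes were matched by gene ID for 10149. The size rule asked for 2-fold and a higher value at or above the array median. Only its 2-fold part, without the median filter, was run on simulated data. That run tells nothing about the error of single arrays. Named genes were the members, the 10 genes nearest in pattern, all measured genes of short lists and up to 4 with the largest differences of longer ones. Further genes, such as other markers, genome neighbours and genes with equal values, were named after their values were seen. Members and lists were chosen with earlier results of these data known. Alternatives were thresholds of 1.5-fold and 3-fold, no filter and a 75th percentile filter, quantile normalization, cyclic loess, median centring, an offset of 16 and the probe set with the highest mean. All rescaling started from the deposited RMA values of the 12417 probe sets. Quantile normalization and cyclic loess used limma 3.58.1 in R 4.3.3, and other steps pandas 2.3.3 and numpy 2.4.6 in Python 3.11.15.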

Additional observations from a re-analysis of the deposited data

How the results depend on the processing

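No paired analysis was possible because each population had 1 array, and no array could be left out. The count of members lower in CXCR3- innate than in naive cells went from 6 to 2 after quantile normalization and to 0 at 3-fold, and their median to -0.98 after quantile normalization. It was 5 with the 75th percentile filter and with the probe set of highest mean, and 4 with the offset. Against CXCR3+ innate cells, the count of 1 went to 5 at 1.5-fold and 0 at 3-fold. For CXCR3+ innate minus naive it went from 0 to 1 at 1.5-fold. No called member difference changed sign under any alternative run. Over all genes, the 23 lower in CXCR3- innate than in naive cells became 163 at 1.5-fold and 3 at 3-fold. They became 9 after quantile normalization, 15 with the offset, 21 with the 75th percentile filter and 24 with the probe set of highest mean. The 15 lower than in CXCR3+ innate cells became 102 at 1.5-fold and 2 at 3-fold. For CXCR3+ innate minus naive, the 10 lower and 14 higher genes became 71 and 51 at 1.5-fold, and 2 and 3 at 3-fold. Differences of list medians and of the genes nearest in pattern were recomputed after the data were seen. The cause of the shifts after normalization was not tested.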
